A study of Mus musculus with 13 samples.

Results

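Claudins, occludin and the scaffold protein zonula occludens 1 form the core of the epithelial tight junction, and 10 of their genes were followed here across single epithelial cells of the mouse colon. The members were listed by name: Cldn2, Cldn3, Cldn4, Cldn7, Cldn8, Cldn12, Cldn15, Cldn23, Ocln and Tjp1, 10 of the 32285 genes measured.  The cells came from whole colons of wild type C57BL/6J mice given antibiotics (a single library batch) and of germ-free C57BL/6J mice (a second batch), and the sources used here give no ages, numbers of animals or names of the antibiotics. Cells were pooled by condition and then sorted as EPCAM-positive and CD45-negative, with CD44-positive (proliferative) and CD44-negative (differentiated) cells in equal numbers, before a 10X droplet assay that reads the 3′ ends of transcripts. Each condition was therefore 1 pool of animals, measured in a batch of its own. Condition and batch cannot be told apart, and no p-value is given. Control mice, which the series' design names, were not analysed here.

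Tight junctions close the gap between neighbouring epithelial cells and set which ions and how much water pass between them. Claudins are membrane proteins that join across that gap: some, such as Cldn2 and Cldn15, form channels for small cations, while others tighten the seal. Occludin sits in the same strands, and zonula occludens 1, the product of Tjp1, ties claudins and occludin to the actin cytoskeleton. In the colon, cells are born in crypts and mature as they move to the surface, where the seal faces the gut contents.

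The antibiotic pool held 3415 cells and 36530277 UMI (unique molecules), the germ-free pool 768 cells and 3100880 UMI. Cell names divide the antibiotic pool into cell sets 1, 2 and 3 and the germ-free pool into cell sets 3 and 4, with a median of 6599 to 7420 UMI per cell in the antibiotic sets, 1045 in germ-free set 3 and 4681.5 in germ-free set 4. Levels are given in CPM, a gene's UMI scaled by the total UMI of the same cells, and all intervals are 95% intervals for counting error only. The antibiotic cell sets were not separate samples of cells: 810 cell barcodes occurred in more than 1 of them, in 1647 cells (48.2% of antibiotic cells), and no germ-free barcode was shared. Across genes, cells with the same barcode in different sets had a median correlation of 0.48, against 0.14 for cells with different barcodes. Agreement among antibiotic sets is therefore not a replicate check, and each called result on a member is also given without these cells. Epithelial markers summed to 6429 CPM in the antibiotic pool and 6865 CPM in the germ-free one, while 5 immune markers summed to 1.56 and 1.93 CPM and 5 markers of stroma and vessels to 4.87 and 3.55 CPM. The mitochondrial share of UMI was 12.4% in the antibiotic pool and 18.7% in the germ-free pool. The part of mitochondrial genes in the results below was not tested beyond totals that leave them out and a stricter choice of cells. Stricter cells had at least 1000 UMI and a mitochondrial share of at most 15%.

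Positions along the crypt and the colon were read from marker genes, none of which is a junction gene. The surface share of a cell is its UMI of surface markers (such as Lypd8 and Guca2a) as a percentage of surface and crypt markers together, over 3217 cells with at least 5 such UMI outside the goblet, enteroendocrine and tuft gates. The crypt gate held cells with a share of up to 86.4% (866 antibiotic and 206 germ-free cells) and the surface gate cells above 98.4% (915 and 154 cells). Surface markers rose from 1664 to 17794 CPM between these gates in antibiotic cells, and crypt markers fell from 1637 to 123 CPM. The gates cut a continuous range: 139 cells lay within 2 percentage points of the lower limit and 1458 within 2 points of the upper. In germ-free cell set 3, all 63 cells of the surface gate held no crypt marker UMI at all, at a median depth of 1282 UMI. Distal cells had at least 2 UMI of distal markers and more of these than of proximal markers (415 antibiotic and 115 germ-free cells), and proximal cells had at least 2 UMI of proximal markers and no distal one (1115 and 209 cells). Over all cells, Sycn gave 83.8% of the distal marker UMI, and Cyp2c55 and Mptx1 gave 40.3% and 25.9% of the proximal ones. Of 163865 proximal marker UMI, 39450 lay in goblet gate cells, which the region gates leave out, so these shares may differ within the region gates. The goblet gate held 95 antibiotic and 78 germ-free cells with at least 1% of UMI from goblet markers, of which 60 were between 1% and 2%, and 108 further cells lay between 0.5% and 1%.

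Upstream sequence was read for the channel claudins, which were higher in crypt or goblet cells, and for the neighbouring pair Cldn3 and Cldn4, which were both higher at the surface. The 250 bases before the RefSeq transcript start (GRCm38.p6) are printed 5′ to 3′ on the gene's strand. Capitals mark matches, on either strand, to the core TTTAT bound by CDX factors of the intestine or to the AP-1 sequence TGANTCA. The third sequence searched, the HNF4 half-site CAAAGTCC, is in none of the 4.
Cldn2, chrX:139800558-139800807, plus strand: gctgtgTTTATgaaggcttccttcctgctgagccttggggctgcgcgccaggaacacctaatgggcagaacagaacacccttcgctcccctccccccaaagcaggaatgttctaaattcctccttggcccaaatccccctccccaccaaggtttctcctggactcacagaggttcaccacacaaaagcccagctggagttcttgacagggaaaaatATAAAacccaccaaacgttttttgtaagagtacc
Cldn15, chr5:136967619-136967868, plus strand: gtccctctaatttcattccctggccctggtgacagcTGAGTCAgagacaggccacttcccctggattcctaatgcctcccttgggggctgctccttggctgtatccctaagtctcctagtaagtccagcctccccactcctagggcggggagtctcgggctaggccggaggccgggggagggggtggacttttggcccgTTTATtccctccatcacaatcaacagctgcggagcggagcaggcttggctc
Cldn3, chr5:134985964-134986213, plus strand: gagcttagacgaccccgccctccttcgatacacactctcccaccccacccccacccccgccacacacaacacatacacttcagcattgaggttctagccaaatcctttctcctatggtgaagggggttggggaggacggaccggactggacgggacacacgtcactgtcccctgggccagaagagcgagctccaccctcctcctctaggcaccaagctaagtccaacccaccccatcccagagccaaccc
Cldn4, chr5:134946935-134947184, minus strand: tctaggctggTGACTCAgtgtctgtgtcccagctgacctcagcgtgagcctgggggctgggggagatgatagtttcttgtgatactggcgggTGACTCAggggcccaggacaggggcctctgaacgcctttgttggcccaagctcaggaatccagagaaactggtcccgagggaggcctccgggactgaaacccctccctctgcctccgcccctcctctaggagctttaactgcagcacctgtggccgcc
The Cldn2 window holds TTTAT at -244 and at -34, counted back from the start, the latter overlapping a TATAAA sequence. The Cldn15 window holds TTTAT at -51 and an AP-1 sequence at -214. The Cldn4 window holds AP-1 sequences at -240 and -158, whereas the Cldn3 window holds none of the 3 motifs. Of all 32851 promoter windows of this length, 37.3% hold TTTAT, 6.75% the AP-1 sequence and 1.2% CAAAGTCC. Windows were listed for 8 of the 10 members, and Cldn8 and Cldn23 had none. In GENCODE vM21 (mm10), Cldn3 (chr5:134986214-134987472, plus strand) and Cldn4 (chr5:134945119-134946934, minus strand) lie 39279 bases apart with no gene between them. Cldn3 overlaps the antisense gene Wbscr25, listed at 1.69 CPM. The sources used here do not say whether counting used strand, so reads of that pair cannot be told apart.

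From crypt to surface, the channel claudin Cldn2 fell and the claudins Cldn3, Cldn4, Cldn7 and Cldn23 rose, as did the scaffold Tjp1. A gene was called higher or lower between 2 gates when the mean log2 ratio of both conditions (of CPM + 5) passed 1.5-fold and every cell set had the same sign. Among the 9 members tested, 5 were called higher at the surface, where 12.5% of the 6936 genes tested were, and 1 was called lower, where 28.9% were. The median log2 ratio was 0.63 for the members and -0.31 for all genes tested. All 6 calls were also made without the shared barcodes.

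Cldn2, which forms channels for sodium and water, was at 67.5 CPM in the crypt gate and 6.82 CPM in the surface gate of antibiotic cells, 9.89-fold lower (interval 7.85 to 12.6). In germ-free cells it was at 76.0 CPM and 11.8 CPM (73 and 7 UMI), 6.44-fold lower (2.97 to 16.6). The log2 ratio was -2.63, -2.47 and -2.71 in antibiotic sets 1, 2 and 3 and -1.63 and -2.43 in germ-free sets 3 and 4, with a mean of -2.44. Every set was below 0. In 5 bins of near-equal cell number along the axis, Cldn2 fell at each step in antibiotic cells, from 76.7 CPM over 50.0, 16.7 and 9.22 to 4.99 CPM. When cells with at least 1000 UMI were thinned to that depth and the others dropped, the log2 ratio was -2.32 but was no longer called.

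Cldn15, the sodium channel claudin of the gut, had a similar course but did not meet the rule. It was at 53.5 CPM in the crypt gate and 12.7 CPM in the surface gate of antibiotic cells, and germ-free cells had 61.4 and 28.7 CPM. The log2 ratio was -1.27, -1.87 and -1.83 in the antibiotic sets and -1.30 in germ-free set 4, but 0.95 in germ-free set 3, where it rested on 3 UMI in the crypt gate and 5 in the surface gate. Without germ-free set 3, Cldn15 was called lower at the surface, with a log2 ratio of -1.52.

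The sealing claudin Cldn3 was at 188 CPM in the crypt gate and 705 CPM in the surface gate of antibiotic cells, a ratio of 3.74 (3.55 to 3.94), while germ-free cells had 169 and 447 CPM, a ratio of 2.65 (2.17 to 3.24). Its log2 ratio was 1.61, 1.82 and 2.03 in the antibiotic sets and 0.26 and 1.52 in germ-free sets 3 and 4. Cldn7, which also lies along the lateral membrane outside the junction, was at 801 CPM and 1954 CPM in antibiotic cells, a ratio of 2.44 (2.38 to 2.50). In germ-free cells Cldn7 was at 515 CPM and 958 CPM, a ratio of 1.86 (1.65 to 2.10). Both genes were called higher under all 19 alternative settings.

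Cldn23, a claudin known from differentiated colon cells, had the highest surface ratio of the members. It was at 25 CPM in the crypt gate and 160 CPM in the surface gate of antibiotic cells, a ratio of 6.40 (5.58 to 7.37). In germ-free cells it was at 18.7 CPM and 77.6 CPM, a ratio of 4.14 (2.36 to 7.59). The log2 ratio lay between 1.39 (germ-free set 3) and 2.63 (antibiotic set 2), and the call was made under all 19 alternative settings. Proximal markers also rose between these gates, from 1438 to 5284 CPM in antibiotic cells. Among antibiotic distal cells, Cldn23 had 99 of 3587813 UMI below the median surface share and 116 of 3008021 above it. Antibiotic proximal cells had 300 of 4154869 and 1403 of 7801559 UMI. The part of region in the surface ratio was not tested.

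Cldn4, a claudin of tight epithelia, rose from 15.8 CPM to 73.7 CPM in antibiotic cells, a ratio of 4.65 (3.90 to 5.58). Its germ-free values, 3.12 CPM in the crypt gate and 11.8 CPM in the surface gate, rested on 3 and 7 UMI, a ratio of 3.78 with an interval from 0.863 to 22.7. The sets ranged from 0.22 in germ-free set 3 to 2.31 in antibiotic set 3 on the log2 scale. The direction in germ-free cells thus was not distinguishable at this depth, and the call rested on the sign in each set. Cldn4 was called under 17 of 19 alternative settings, but not in thinned cells or with means of per-cell values.

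The scaffold Tjp1 was at 132 CPM in the crypt gate and 205 CPM in the surface gate of antibiotic cells, while germ-free cells had 108 and 172 CPM. Its log2 ratio was narrow, from 0.51 to 0.71 over the 5 cell sets with a mean of 0.63, close to the 1.5-fold limit, and 6 of 19 alternatives did not call it. Ocln, which binds it, was at 169 and 223 CPM in the antibiotic pool and at 140 and 192 CPM in the germ-free pool, a mean log2 ratio of 0.42 that was not called. Cldn8, which seals against sodium leak, had a mean of 0.04, with 25.1 and 24.2 CPM (antibiotic) and 54.1 and 59.1 CPM (germ-free). Cldn12, a claudin tied to calcium passage, had 21.4 and 16.1 CPM (antibiotic) and 16.7 and 13.5 CPM (germ-free) and was below the level needed for a test.

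**Figure D1:**
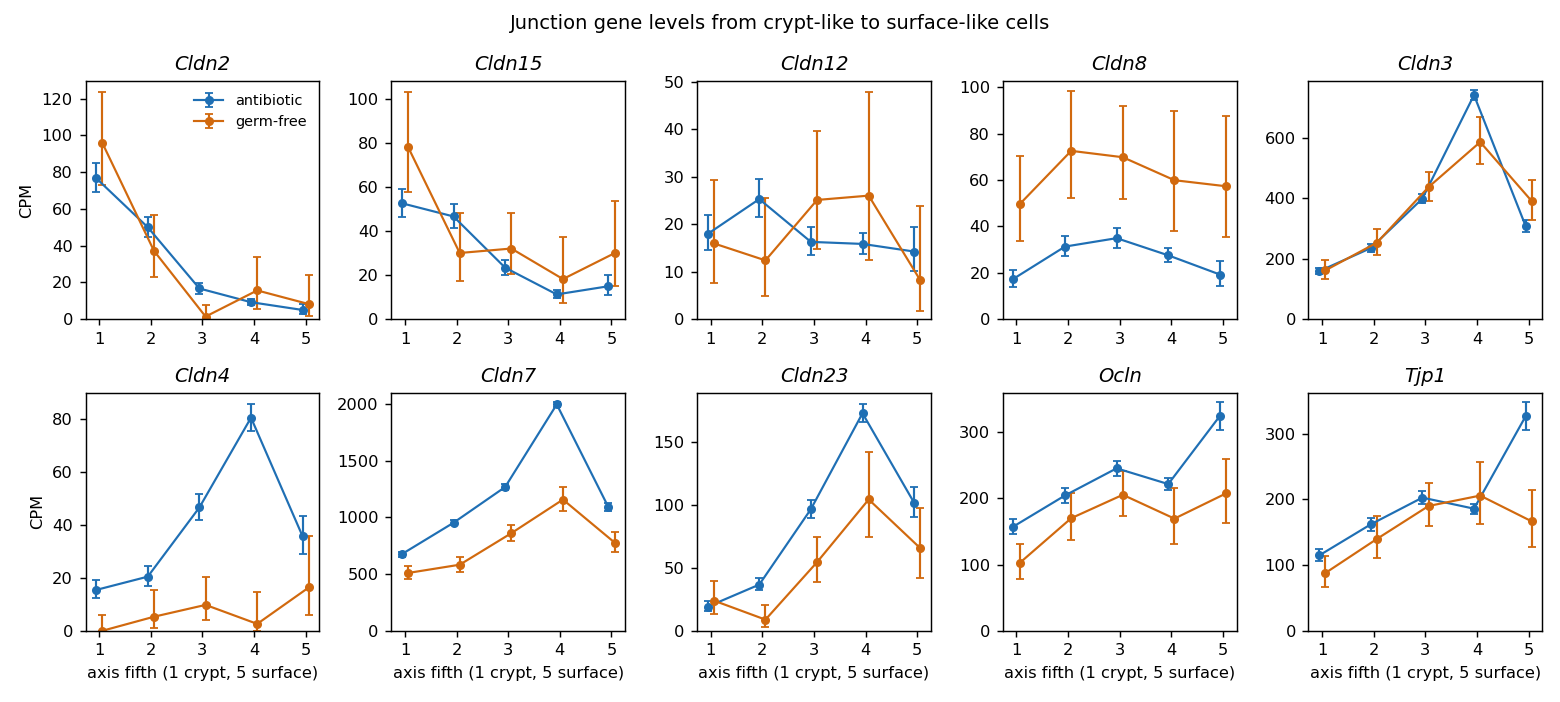
CPM of each member in 5 bins of cells ordered by surface share (1 nearest the crypt, 5 nearest the surface), for antibiotic and germ-free cells; bars are 95% counting intervals. In antibiotic cells Cldn2 falls from 76.7 to 4.99 CPM, whereas Cldn7 has its highest value, 1995 CPM, in bin 4.

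The surface claudins did not rise to the very end of the axis. In antibiotic cells Cldn3 went from 158 CPM in bin 1 to 741 CPM in bin 4 and was at 308 CPM in bin 5. Cldn7 was at 1995 CPM in bin 4 and 1090 CPM in bin 5, and Cldn23 at 172 CPM and 102 CPM (2132 and 285 UMI). Ocln and Tjp1 ran the other way over the same step: Ocln was at 221 CPM in bin 4 and 324 CPM in bin 5, and Tjp1 at 186 and 326 CPM. These bins also differed in other measures. Bin 5 consisted almost wholly of cells with no crypt marker UMI (509 of 518 antibiotic cells), its cells had a median of 3256.5 UMI against 18944.5 in bin 4, and mitochondrial genes took 18.1% of UMI against 10.4%. Surface markers were at 9372 CPM in bin 5 and 17760 CPM in bin 4, so bin 5 was the extreme of the share but not of the surface markers' level. The part of depth and RNA quality in this step was not tested. In germ-free cells Tjp1 did not share it, at 206 CPM in bin 4 and 166 CPM in bin 5 (79 and 61 UMI).

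**Figure D2:**
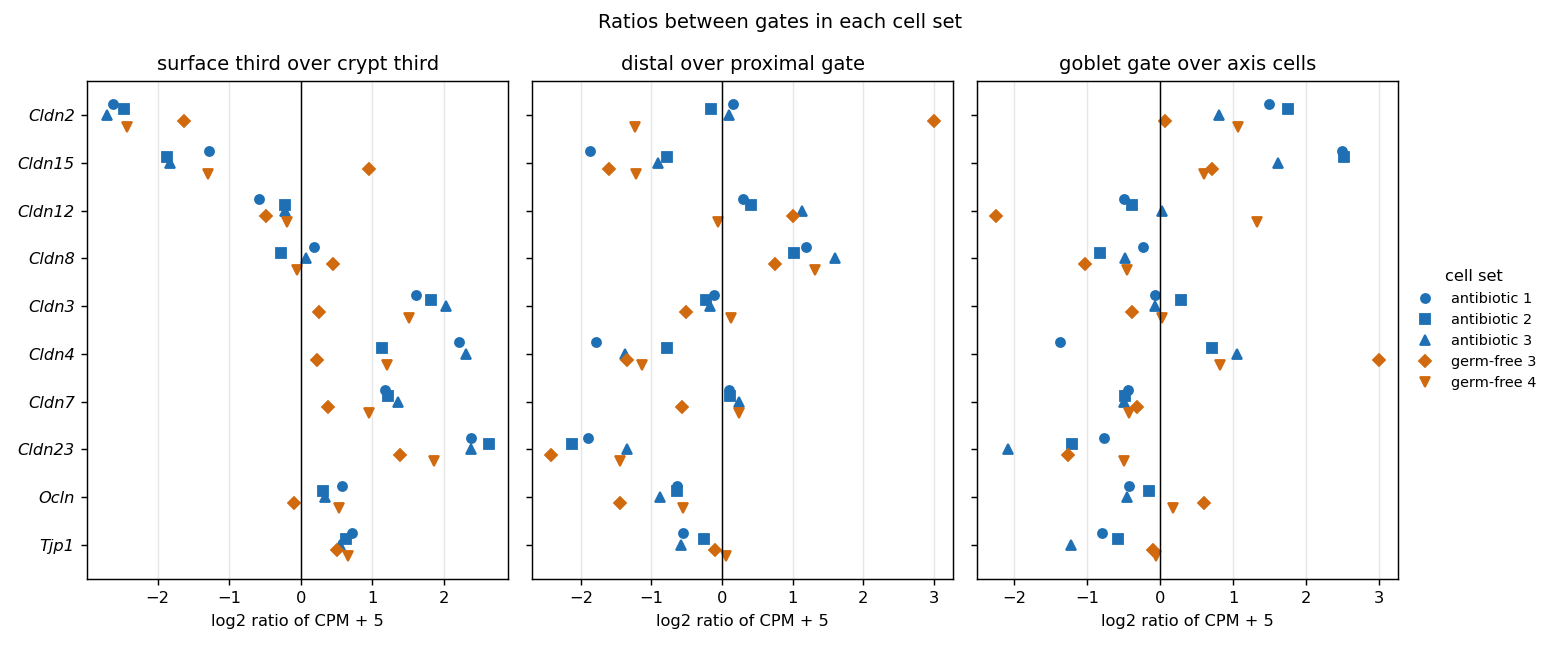
Log2 ratio of CPM + 5 for each member in each cell set, for surface over crypt gate, distal over proximal gate, and goblet gate over axis cells. The line marks no difference. Cldn2 lies below 0 at the surface in all 5 sets, Cldn8 above 0 in distal cells in all 5, and Cldn15 above 0 in goblet cells in all 5.

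Cells of the goblet gate carried more of both channel claudins and less Cldn23 than the axis cells, which lie outside that gate. Goblet cells secrete mucus and lie among the absorptive cells with which they share their junctions. Of the 10 members tested, 2 were called higher, where 11.9% of 6817 genes were, and 1 was called lower, where 11.6% were, so the counts themselves were close to those of all genes. Cldn15 was at 144 CPM in goblet cells and 27.0 CPM in axis cells of the antibiotic pool, a ratio of 5.34 (4.53 to 6.26), and at 64.6 and 40.3 CPM in the germ-free pool, a ratio of 1.61 (0.943 to 2.61). Its log2 ratio was 2.49, 2.51 and 1.61 in the antibiotic sets and 0.71 and 0.61 in the germ-free sets, all above 0. Cldn2 was at 86.8 and 28.1 CPM in the antibiotic pool, a ratio of 3.08 (2.51 to 3.76), and at 71.1 and 34.2 CPM in the germ-free pool, a ratio of 2.08 (1.24 to 3.34). The log2 ratio of Cldn2 was 1.5, 1.75, 0.81, 0.06 and 1.07 over the 5 sets, so that germ-free set 3, with 32 goblet cells and 2 UMI of Cldn2, lay at the limit. Without the shared barcodes the log2 ratios were 1.41 for Cldn15 and 1.07 for Cldn2, and both calls were made. Antibiotic sets 1 and 2 then had too few goblet cells to be checked for sign. With a goblet limit of 2% Cldn15 was called and Cldn2 was not, and Cldn2 was not called with totals without mitochondrial genes either.

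The reference cells matter for these calls, because goblet cells had crypt markers at 1098 CPM and surface markers at 1817 CPM in the antibiotic pool, nearer to the crypt gate than to the surface gate. Proximal markers were at 27352 CPM in goblet and 3416 CPM in axis cells of the antibiotic pool, and at 16516.5 and 1975 CPM in the germ-free pool. Goblet and axis cells were not matched by region, and the part of region in the goblet calls was not tested. Against only the axis cells below the median surface share, Cldn15 had a log2 ratio of 0.91 and was called, Cldn2 had 0.54 and was not. Cldn23 was at 38.2 CPM in goblet and 102 CPM in axis cells of the antibiotic pool and at 29.1 and 46.3 CPM in the germ-free pool, a mean log2 ratio of -0.95. Against the lower axis cells its ratio turned to 0.13. Without the shared barcodes it was -1.13.

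The other members of the goblet comparison were not called. Cldn4 was at 75.7 CPM in goblet and 48.4 CPM in axis cells of the antibiotic pool, but the sets ran from -1.37 in antibiotic set 1 to 2.99 in germ-free set 3 on the log2 scale, the latter on 4 UMI. Without antibiotic set 1 Cldn4 was called higher (1.16). It was also called higher without the shared barcodes (1.03) and with a goblet limit of 2%. In both of these settings antibiotic set 1 had too few goblet cells to be checked for sign. Cldn3 was at 474 and 448 CPM in antibiotic cells, a ratio of 1.06 (0.972 to 1.15). Cldn7 had -0.44, -0.48, -0.49, -0.31 and -0.43 in the 5 sets, the same sign throughout but under 1.5-fold. Tjp1 was at 101 CPM in goblet and 186 CPM in axis cells of the antibiotic pool, a ratio of 0.544 (0.453 to 0.648), and at 149 and 154 CPM in the germ-free pool, a ratio of 0.964 (0.695 to 1.31). Cldn8 had a mean of -0.50, with 18.3 and 27.7 CPM (antibiotic) and 42.0 and 62.5 CPM (germ-free). Cldn12 rested on 18 antibiotic and 14 germ-free UMI in goblet cells and differed in sign between the sets.

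Along the colon, Cldn8 was higher in distal cells, while Cldn4, Cldn15, Cldn23 and Ocln were lower. Since proximal markers are mostly genes of mature cells, each region was averaged over its cells below and above the median surface share with equal weight. Of the 10 members tested, 1 was called higher in distal cells, where 9.08% of 6397 genes were, and 4 were called lower, where 8.32% were. The count called higher was thus close to that of all genes, and the count called lower above it. The median log2 ratio was -0.27 for the members and 0.06 for all genes tested. Distal cells were the deeper ones, with a median of 11382 UMI against 7699 in proximal cells of the antibiotic pool and 4442 against 3434 in the germ-free pool. When cells were thinned to 2000 UMI before gating, Cldn8 (1.41) and Cldn15 (-1.2) were no longer called, while Cldn4, Cldn23 and Ocln were. Cells below 2000 UMI were dropped there, and germ-free set 3 had too few cells left to be checked for sign.

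Cldn8, whose protein limits sodium back-leak in the distal colon, was at 50.3 CPM in distal and 19.2 CPM in proximal cells of the antibiotic pool and at 96.2 and 38.2 CPM in the germ-free pool. The log2 ratio was 1.19, 1.02, 1.60, 0.75 and 1.31 over the 5 sets, all above 0, with a mean of 1.21. In the upper cells of the antibiotic pool the ratio was 3.22 (2.57 to 4.03), and in the lower cells 2.06 (1.56 to 2.74). In germ-free cells the upper ratio was 5.07 (2.12 to 13.9), on 24 and 7 UMI, and the lower ratio 1.65 (0.973 to 2.82). Without the shared barcodes Cldn8 had a log2 ratio of 1.36, and with distal cells taken from Hox genes alone (at least 1 UMI) it had 0.85, both called.

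Cldn23 was at 33.1 CPM in distal and 126 CPM in proximal cells of the antibiotic pool and at 21.8 and 74.4 CPM in the germ-free pool. Its sets ran from -2.42 to -1.35 on the log2 scale, and all 19 alternatives called it lower, -1.52 without the shared barcodes. Among upper cells of the antibiotic pool, distal cells had 38.6 CPM and proximal cells 180 CPM, 4.66-fold lower (3.86 to 5.69). Cldn23 was thus the member with the highest surface ratio and the lowest distal ratio.

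Cldn15 was at 13.6 CPM in distal and 33.1 CPM in proximal cells of the antibiotic pool and at 14.1 and 42.5 CPM in the germ-free pool, a mean log2 ratio of -1.18 (-1.16 without the shared barcodes). The ratio was largest among lower cells, where proximal cells had 51.3 CPM and distal cells 19.2 CPM in the antibiotic pool, and 62.9 and 11.8 CPM in the germ-free pool (33 and 4 UMI). Its fellow channel claudin Cldn2 had 46.0 CPM in proximal and 51.8 CPM in distal lower cells of the antibiotic pool, a ratio of 1.13 (0.917 to 1.39). The sets disagreed on Cldn2, from -1.23 in germ-free set 4 to 3.0 in germ-free set 3, the latter on 5 distal UMI and 1 proximal UMI.

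Ocln was at 156 CPM in distal and 268 CPM in proximal cells of the antibiotic pool and at 132 and 207 CPM in the germ-free pool, a mean log2 ratio of -0.70 with the same sign in all 5 sets. It was -0.72 without the shared barcodes, but with lists that leave out Sycn and Mptx1 it was -0.36 and not called. Ocln was not called either with distal cells taken from Hox genes alone. Cldn4 was at 19.6 and 49.1 CPM in the antibiotic pool, and at 2.96 and 12.5 CPM in the germ-free pool, on 2 distal and 10 proximal UMI. Its mean was -1.14, and without the shared barcodes it was -0.93 and not called. Cldn4 was also not called with distal cells taken from Hox genes alone, with a proximal list without Cyp2c55, or with at least 3 region UMI. In the upper distal cells of the germ-free pool Cldn4 had 0 UMI, where 3 counts would be 12.2 CPM. Cldn3 (-0.06), Cldn7 (0.19), Cldn12 (0.40) and Tjp1 (-0.23) were not called.

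**Figure D3:**
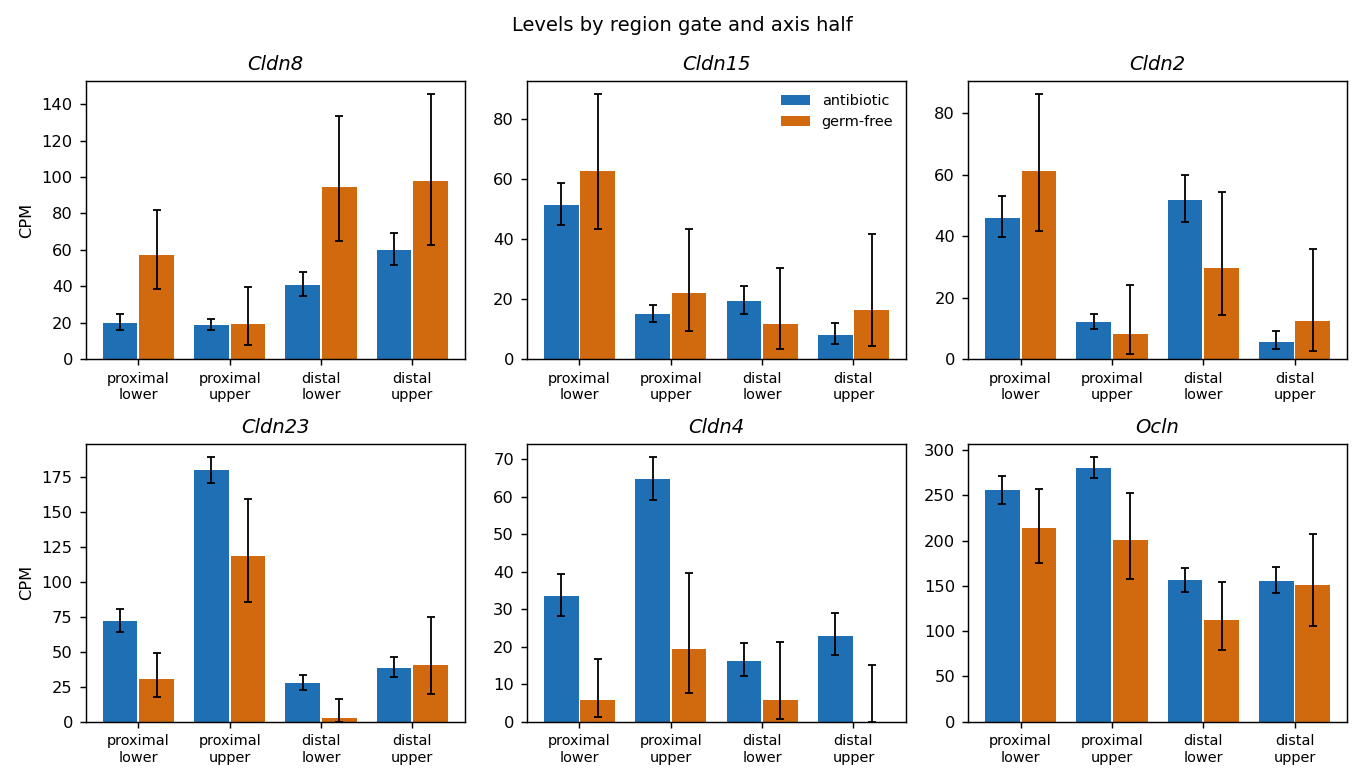
CPM of 6 members in proximal and distal cells, each divided at the median surface share into lower and upper cells, for antibiotic and germ-free cells; bars start at 0 and lines are 95% counting intervals. Cldn8 is highest in the distal cells of both pools and Cldn23 in the upper proximal cells, at 180 and 118 CPM.

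Between the conditions, germ-free cells had more Cldn8 and less Cldn4, Cldn7 and Cldn23 than antibiotic cells. A gene was called here when the pools differed by at least 1.5-fold (log2 of CPM + 1) and both germ-free sets lay beyond all 3 antibiotic sets. Of the 10 members tested, 1 was called higher, where 6.72% of 6462 genes were, and 3 were called lower, where 6.28% were, so that the lower calls stood above the share of all genes and the single higher call near it. The median log2 ratio was -0.32 for the members and 0.05 for all genes tested. All 4 calls were also made without the shared barcodes. Depth moved with the condition, with a median of 6993 UMI per cell in the antibiotic pool and 2873.5 in the germ-free pool. In cells thinned to 1000 UMI, Cldn4 (-2.07) and Cldn7 (-0.94) were called again, Cldn8 (1.71) and Cldn23 (-0.72) were not, and Cldn15 (0.74) was called higher.

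Cldn8 was at 34.0, 28.5 and 22.3 CPM in the antibiotic sets, against 84.4 and 56.0 CPM in the germ-free sets, so the groups did not overlap. The pools were at 26.8 and 59.7 CPM, a ratio of 2.22 (1.89 to 2.61) and a log2 ratio of 1.12. The ratio was 2.16 (1.56 to 2.92) in the crypt gate, 2.44 (1.67 to 3.47) in the surface gate, 2.19 (1.51 to 3.12) in proximal cells, 1.94 (1.44 to 2.58) in distal cells and 2.29 (1.07 to 4.72) in the goblet gate. It was 2.90 (1.84 to 4.45) in proximal cells of the lower part of the axis but 1.04 (0.410 to 2.19), on 7 germ-free UMI, in those of the upper part. Of the gates named here, germ-free distal cells had the highest Cldn8 level, at 95.9 CPM. Without the shared barcodes the log2 ratio was 1.45.

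Cldn4 was at 39.2, 38.1 and 60.5 CPM in the antibiotic sets, against 14.9 and 7.04 CPM in the germ-free sets, again with no overlap. The germ-free value rested on 25 UMI. The pools differed 6.01-fold (4.06 to 9.32), a log2 ratio of -2.45, which was -1.64 without germ-free set 4. The difference was 6.24-fold (3.02 to 15.6) in the surface gate, 4.78-fold (2.58 to 10.0) in proximal cells and 2.93-fold (1.43 to 6.98) in the goblet gate. Cldn4 was at 60.2 CPM in antibiotic cells without the shared barcodes, and the log2 ratio was then -2.75. With equal weights of the gates, the log2 ratio of Cldn4 was -1.98 and not called.

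Cldn7, the claudin with the most UMI, was at 1083, 1445 and 1375 CPM in the antibiotic sets and at 303 and 767 CPM in the germ-free sets. The pools differed 1.89-fold (1.81 to 1.97), with a log2 ratio of -0.92. Germ-free set 3 had less than germ-free set 4 by a wide margin, and without set 4 the log2 ratio was -2.14, without set 3 -0.80. The difference was 1.55-fold (1.42 to 1.71) in the crypt gate and 2.04-fold (1.88 to 2.22) in the surface gate. The crypt value was near the limit, and 4 of 11 alternatives did not call it: without antibiotic set 2 (-0.54), without germ-free set 3 (-0.53), with totals without mitochondrial genes (-0.51) and without the shared barcodes (-0.50).

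Cldn23 was at 104, 98.6 and 94.0 CPM in the antibiotic sets and at 52.1 and 42.6 CPM in the germ-free sets, 2.23-fold lower (1.88 to 2.66) and -1.14 on the log2 scale. In the surface gate it was 2.06-fold lower (1.54 to 2.83) and called, and in the crypt gate, on 18 germ-free UMI, 1.33-fold lower (0.826 to 2.29) and not called. Whether these ratios differ between the gates was not tested.

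The remaining members were not called between the pools. Cldn2 was at 35.9, 34.5 and 24.2 CPM in the antibiotic sets and at 49.6 and 37.8 CPM in the germ-free sets. The pools differed 1.31-fold (1.07 to 1.58), under the 1.5-fold limit. Without the shared barcodes, where the antibiotic pool had 23.9 CPM, Cldn2 was called higher, with a log2 ratio of 0.70, and with equal weights of the gates the log2 ratio was -0.17. In the middle of the axis Cldn2 ran the other way, at 0.501 (0.247 to 0.912) of the antibiotic level on 11 germ-free UMI. Cldn15 was at 31.2, 33.5 and 29.4 CPM against 49.6 and 42.3 CPM, a ratio of 1.39 (1.15 to 1.66). In the goblet gate Cldn15 ran the other way, at 144 CPM in the antibiotic pool and 64.6 CPM in the germ-free pool, 2.23-fold lower (1.40 to 3.74) on 20 germ-free UMI. Cldn3 was at 377, 471 and 452 CPM against 191 and 359 CPM, a log2 ratio of -0.39. Ocln was at 252, 196 and 222 CPM against 179 and 169 CPM, and Tjp1 at 204, 170 and 183 CPM against 169 and 150 CPM, log2 ratios of -0.37 and -0.26. Cldn12 was at 17.7 CPM and 21.0 CPM, and its sets overlapped. In Cldn3, Ocln and Tjp1 both germ-free sets lay below all antibiotic sets, and in Cldn2 and Cldn15 above, all under 1.5-fold. The share of all genes without overlap is not given here.

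Within the gates, 1 of 9 members tested was called higher in the crypt gate (Cldn8), where 7.78% of 7042 genes were, and 1 was called lower (Cldn7), where 11.3% were, both near the share of all genes. In the surface gate 2 of 8 were called higher (Cldn8 and Cldn15), where 14.8% of 6043 genes were. There 4 were called lower (Cldn3, Cldn4, Cldn7 and Cldn23), where 10.1% were. The surface gates also differed in region markers. Proximal markers were at 5284 CPM (antibiotic) and 2399 CPM (germ-free), and distal markers at 782 and 1947 CPM. Among upper cells, Cldn8 had a germ-free over antibiotic ratio of 1.04 (0.410 to 2.19) in proximal and 1.63 (1.02 to 2.51) in distal cells. For Cldn23 the ratios were 0.658 (0.474 to 0.892) and 1.06 (0.493 to 2.01). The part of region in the surface calls was not tested. Surface cells held Cldn15 at 12.7 CPM in the antibiotic and 28.7 CPM in the germ-free pool, a ratio of 2.25 (1.28 to 3.73) on 17 germ-free UMI. Cldn3 was at 705 and 447 CPM there, 1.58-fold lower (1.40 to 1.79), but 7 of 11 alternatives did not call it. In the crypt gate Cldn3 was at 188 and 169 CPM, 1.12-fold lower (0.950 to 1.32). Without the shared barcodes the 6 calls in the surface gate were made again, as was that of Cldn8 in the crypt gate (1.66). In thinned cells, 2 of the 6 surface calls were made, Cldn4 (-2.22) and Cldn7 (-1.21), while Cldn3 (-0.33), Cldn8 (1.13), Cldn15 (1.10) and Cldn23 (-0.90) were not called. Cldn8 was not called in the crypt gate either when cells were thinned (1.23), and with stricter cells it was called neither there (0.85) nor at the surface (1.06).

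**Figure D4:**
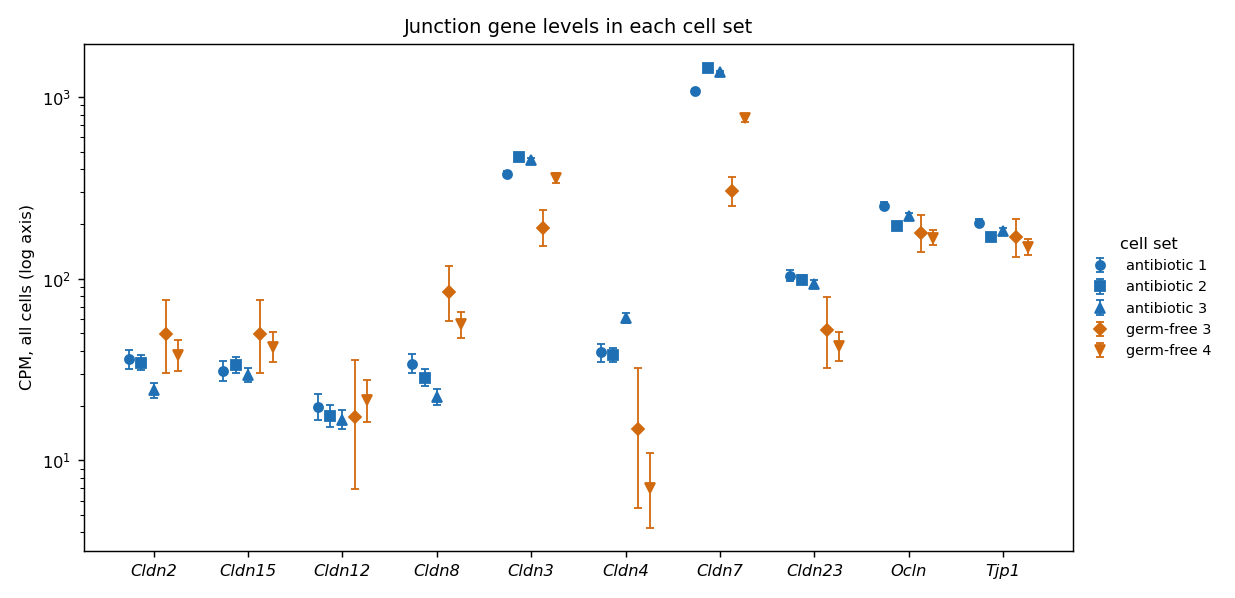
CPM of each member over all cells of each cell set on a log axis, with 95% counting intervals; circles, squares and triangles are antibiotic sets, diamonds and inverted triangles germ-free sets. The called members Cldn4, Cldn7 and Cldn23 have both germ-free sets below all antibiotic sets, and Cldn8 has both above. So have, at under 1.5-fold, Cldn3, Ocln and Tjp1 (below) and Cldn2 and Cldn15 (above).

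The make-up of the claudin message can be read from UMI shares, in which each captured molecule counts once whatever its length, although capture may differ between genes. Of the 74126 antibiotic UMI of the 8 claudins, Cldn7 took 65.8% and Cldn3 21.8%, followed by Cldn23 with 4.81% and Cldn4 with 2.39%. Of the 3903 germ-free UMI, Cldn7 took 56.1% (54.5 to 57.7) and Cldn3 26.8% (25.4 to 28.2). Cldn8 took 1.32% (1.24 to 1.41) of the antibiotic UMI and 4.74% (4.09 to 5.45) of the germ-free UMI, and Cldn4 2.39% (2.28 to 2.50) and 0.641% (0.415 to 0.944). The channel claudins Cldn2 and Cldn15 took 5.63% and 4.46% in the crypt gate of antibiotic cells and 0.231% and 0.431% in the surface gate. In goblet cells of the same pool Cldn15 took 7.88% (6.81 to 9.06) and Cldn2 4.75% (3.91 to 5.70). Cldn7 kept nearly the same share in the crypt and surface gates of antibiotic cells, 66.9% and 66.2%.

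Genes with the most similar pattern were sought over 17 points formed by axis bin, region and condition, each with at least 20 cells. Points share cells' libraries and depth, and the correlations are descriptions only. For Cldn2 the closest genes outside the members were Tial1 (Pearson r = 0.90), Hdlbp and Arid5b, for Cldn15 9130410C08Rik (0.91), Vav3 and Ank, and for Cldn8 Timm17a (0.93), Car2 and Rala. For Cldn3 they were H2-D1 (0.96), Prdx5 and Smim22, and for Cldn7 Gapdh (0.97), Ndufa3 and Pet100. Cldn4 was closest to Irf7 (0.84), Errfi1 and Maff, and Cldn23 to Ier5 (0.92), Slc27a4 and Capzb. Ocln was closest to Frk (0.91), Azin1 and Itpk1, and Tjp1 to Cables1 (0.89), Usp53 and Slc22a23. Among the members themselves Ocln with Tjp1 and Ocln with Cldn23 both had r = 0.77 and Cldn3 with Cldn7 had 0.75. The lowest values were -0.70 for Cldn2 with Cldn3 and -0.63 both for Cldn8 with Cldn23 and for Cldn7 with Cldn15. The neighbours Cldn3 and Cldn4 had r = 0.36.

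Other junction genes were counted by list, to be read against all genes: 12.5% were called higher and 28.9% lower at the surface, 9.08% and 8.32% in distal cells, 11.9% and 11.6% in goblet cells, and 6.72% and 6.28% in germ-free cells. None of 16 other claudins reached 100 UMI, the highest being Cldn14 with 63 UMI, or 1.48 CPM (antibiotic) and 2.90 CPM (germ-free). Of 28 other tight junction genes 23 were tested. At the surface 6 were called higher (Ildr1, Pard6b, Crb3, Mylk, Arhgef2 and Epcam) and 4 lower (Cgnl1, Lsr, Pard3 and Prkci), with a median of 0.11 against -0.31 for all genes. Lsr, which builds the corner where 3 cells meet, was at 58.1 CPM in the crypt gate and 6.74 CPM in the surface gate of antibiotic cells, and its relative Ildr1 at 122 and 218 CPM. In distal cells Cgnl1 and Lsr were called higher, and Ildr1 and Pard6b were among the 3 called lower, and in goblet cells Cgnl1, Cxadr and Lsr higher and Cgn, Ildr1, Pard6b, Prkci and Mylk lower. Between the conditions only Pard6b, a polarity gene, was called among these, at 106 CPM (antibiotic) and 45.8 CPM (germ-free). The list's most abundant genes were Epcam at 1473 and 1717 CPM, Magi1 at 609 and 625 CPM, Cxadr at 430 and 404 CPM and Magi3 at 320 and 338 CPM in the antibiotic and germ-free pools.

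Adherens junctions and desmosomes lie below the tight junction and hold cells together mechanically. Of 9 adherens junction genes tested (10 in the goblet comparison), Nectin3 was called higher in germ-free cells. At the surface Cdh17 was called higher and Nectin3 and Vcl lower. Cdh1, the gene of E-cadherin, was at 718 CPM (antibiotic) and 683 CPM (germ-free). Ctnna1 was at 560 and 482 CPM, Ctnnd1 at 505 and 563 CPM and Vcl at 413 and 362 CPM. Of 6 desmosome genes, Jup was called lower in germ-free cells, from 173 to 111 CPM, and Dsg2 and Pkp3 higher at the surface. Dsg2 was at 486 and 406 CPM in the antibiotic and germ-free pools, Dsp at 384 and 390 CPM and Dsc2 at 121 and 140 CPM. In distal cells Cdh17, Nectin2 and Dsc2 were called lower, and in goblet cells Cdh17, Nectin3, Dsg2 and Dsc2.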

How the data were processed

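Single-cell RNA was measured in 5 cDNA libraries, 3 of antibiotic-treated and 2 of germ-free mice; 8 sample barcode libraries were not used. The deposited table of the authors is on a natural log scale, and its values show ln(1 + UMI per 10000) in each cell. UMI counts were recovered from them, whole within 0.01 for 100% of 9481333 nonzero values, and 0 columns stayed unmapped. The submitters' processing notes name Cell Ranger 7.0.0, kallisto, bustools and mm10, with no role for each. The sources used here give no filter on cells by the authors, all deposited cells were kept, and no doublet caller was run.

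Germ-free cell set numbers do not match the library numbers in the labels, so cells were assigned to conditions only. UMI were summed per gate and scaled to CPM. Levels have exact Poisson, ratios conditional binomial and shares Clopper-Pearson intervals at the 95% level. A gene was tested with at least 100 UMI and 20 CPM in the higher group, and marker genes of the gates were left out of gate comparisons. No p-value was computed, because each condition was 1 pool and the cells of a pool are not replicates. Cell sets of a gate needed at least 20 cells, or 10 in each axis part for the regions. The named genes were the 10 members, the 3 genes with the most similar pattern for each called member, and up to 4 genes with the highest CPM of each junction list; further list genes are named where they were called. A result of the junction lists is not reported here, though their counts include it. The members and lists were chosen with earlier results of these data known. The condition contrast, the crypt to surface contrast and the recovery of counts were tested on simulated data. The region and goblet contrasts were not simulated. Simulated cell sets shared no cells and held changes larger than the 1.5-fold limit, so the test does not cover shared barcodes or smaller changes. Alternatives changed the scaling, filters, gates and cells kept. Python 3.11.15, NumPy 2.4.6, SciPy 1.17.1, pandas 2.3.3 and matplotlib 3.10.9 were used. Gene positions came from GENCODE vM21, which held 31424 of the 32285 symbols, and promoter sequences from RefSeq.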

Additional observations from a re-analysis of the deposited data

Results flagged for a closer look

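The goblet ratio of Ocln had opposite signs in the 2 conditions. Its log2 ratio of goblet gate over axis cells was -0.34 in antibiotic cells and 0.24 in germ-free cells, with each antibiotic cell set below 0 and each germ-free set above 0. The germ-free level rested on 62 UMI in goblet cells. As a ratio of levels it was 0.784 (0.683 to 0.897) in antibiotic cells and 1.19 (0.896 to 1.55) in germ-free cells. Counting error alone thus leaves the germ-free direction unsettled. The difference was not tested.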

How the results depend on the processing

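Counts of called members moved as follows, each with the share of all genes called the same way at that setting. For the condition, 1 member was called higher (6.72% of all genes), 1 to 3 when a cell set was left out (Cldn2 and Cldn15 joined without germ-free set 4, where 21.0% of all genes were called) and 2 without shared barcodes (10.9%). At the surface, 1 was called lower (28.9%), 1 to 2 with a set left out (Cldn15 joined without germ-free set 3, 36.6%), 2 with stricter cells (40.1%), 2 with at least 20 axis marker UMI per cell (32.6%), and 0 in cells thinned to 1000 UMI (18.7%). Germ-free set 3 had too few cells to be checked for sign with 20 axis marker UMI, and with stricter cells in every gate comparison. In distal cells, 1 was called higher (9.08%), 1 to 2 with a set left out (Cldn12 joined without germ-free set 4, 16.1%), 2 with means of per-cell values (10.6%), 0 in thinned cells (9.20%) and 0 with at least 3 region UMI (9.22%). Against 4 called lower there (8.32%), 2 were with at least 1 Hox UMI as the distal gate (Cldn15 and Cldn23, 4.81%). In goblet cells, 2 were called higher (11.9%), and also 2 with a goblet limit of 2% (11.8%), where Cldn4 stood in place of Cldn2. The count was 1 with totals without mitochondrial genes (9.44%) and 1 against lower axis cells only (9.49%). There 1 was called lower (11.6%), 1 to 2 with a set left out (Cldn8 joined without germ-free set 4, 15.2%), 3 with stricter cells (15.0%), 2 without mitochondrial genes (14.2%), 3 with per-cell means (12.9%), 3 with a goblet limit of 0.5% (11.1%), 0 in thinned cells (13.5%), 0 with a 2-fold limit (6.35%) and 0 against lower axis cells only (11.4%). The goblet ratio of Cldn23 reversed to 0.13 against those cells. The cause of these moves was not tested, except that thinning leaves fewer UMI and fewer genes tested. Scaling moved all genes: the median condition ratio was 0.05, 0.16 with totals without mitochondrial genes and -0.06 with median-of-ratios scaling, and of the genes called 51.7%, 72.0% and 32.1% were higher. The 4 condition calls among the members were made under all 3 scalings. The settings without shared barcodes, with 1 cell per barcode, with 20 marker UMI, without Sycn and Mptx1 and with 1 Hox UMI were chosen after seeing the data. A distal gate of Hox genes at the main limit was not run, since 0 cell sets had enough cells. No paired analysis was possible because each condition was 1 pool and the single cell set number that both conditions use, 3, fewer than 2, marks no common source in the labels.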
